A study of Mus musculus with 23 samples.

Results

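The Nr4a genes encode 3 orphan nuclear receptors, and each of the 3 rows, Nr4a1, Nr4a2 and Nr4a3, was taken by its symbol from tables of 24985 gene symbols. All 3 passed the filter on low counts in both tables. Polyadenylated RNA had been sequenced from the hippocampus in 23 samples of C57BL6/J mice in which Acss2, whose enzyme turns acetate into acetyl-CoA in the cytosol and the nucleus, was intact in both copies (WT), deleted in 1 (Het) or deleted in both (Acss2 KO). Exons 3 to 7 were removed in embryos, so the loss was constitutive and not limited to the brain or to neurons, and WT samples carried no allele or agent that the labels name. Whole hippocampus from home cage mice gave 2 WT, 2 Het and 2 KO libraries, all of batch B0. Sections of dorsal hippocampus gave 5 WT and 5 KO libraries from home cage mice and 3 WT and 4 KO libraries taken 30 min after contextual fear conditioning with 1 shock, here called fear. Batch B1 held WT home cage 1 and 2, all 3 WT fear libraries and KO fear 1 and 2. Batch B2 consisted of 3 libraries from each home cage group (KO 1 to 3, WT 3 to 5), and B3 of KO fear 3 and 4 and the remaining KO home cage libraries, 4 and 5. Age, sex and the number of founder lines are not given in the sources used here. Nothing beyond the labels shows that libraries of 1 group came from separate animals, so p-values measure only the spread between these samples.

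Nuclear receptors are transcription factors that usually switch on when a small ligand binds. The Nr4a receptors are counted as orphans. Their ligand pocket is filled by bulky side chains, so that their activity is thought to follow their amount. The genes are immediate early genes whose transcription starts within minutes of neuronal firing. In neurons this transcription depends largely on CREB, a factor that binds cyclic AMP response elements (CREs) and recruits histone acetyltransferases, and in the hippocampus the family is known for its part in the long-term storage of contextual memory. Nr4a1 (Nur77) and Nr4a2 (Nurr1) can pair with the retinoid X receptors, Nr4a3 (Nor1) is not known to do so, and Nr4a2 is best known for the making of midbrain dopamine neurons.

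The stretch before each start site is shown because CREB acts there and because the 3 genes are compared as early targets of neuronal activity. Each line gives the 250 bases before the RefSeq start site, GRCm38.p6, 5′ to 3′ on the gene's strand, at chr15:101266596-101266845 (plus strand) for Nr4a1, chr2:57124004-57124253 (minus strand) for Nr4a2 and chr4:48045055-48045304 (plus strand) for Nr4a3. Capitals mark TGACG, the core letters of a CRE, or its complement CGTCA.
Nr4a1: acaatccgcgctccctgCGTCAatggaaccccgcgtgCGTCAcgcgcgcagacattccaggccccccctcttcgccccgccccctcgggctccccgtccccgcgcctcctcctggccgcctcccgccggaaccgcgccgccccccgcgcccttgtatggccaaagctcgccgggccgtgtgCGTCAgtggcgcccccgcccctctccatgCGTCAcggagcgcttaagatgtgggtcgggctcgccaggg
Nr4a2: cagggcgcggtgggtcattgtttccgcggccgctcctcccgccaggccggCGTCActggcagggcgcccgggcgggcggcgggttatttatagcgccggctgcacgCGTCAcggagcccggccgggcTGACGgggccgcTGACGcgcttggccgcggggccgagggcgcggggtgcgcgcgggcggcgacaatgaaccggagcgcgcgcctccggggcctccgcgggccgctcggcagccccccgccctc
Nr4a3: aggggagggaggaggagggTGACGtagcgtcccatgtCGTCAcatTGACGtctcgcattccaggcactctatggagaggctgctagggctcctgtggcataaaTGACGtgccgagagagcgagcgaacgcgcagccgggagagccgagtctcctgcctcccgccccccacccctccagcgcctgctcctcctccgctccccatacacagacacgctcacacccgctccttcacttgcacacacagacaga

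Each of the 3 promoters held 4 matches to the CRE core within a window of 250 bases before and 50 after the start site, and all of them lay before it. In Nr4a1 their first bases were 233, 213, 69 and 40 bases upstream, all read on the opposite strand. In Nr4a2 they were 200, 144, 123 and 111 bases upstream, and in Nr4a3 231, 213, 205 and 147 bases upstream, in both genes with matches on either strand. Of 32851 RefSeq promoters of the same length, 20.8% held the core at least 1 time on either strand and 76, or 0.231%, held it at least 4 times. This limit of 4 was chosen after the counts in the Nr4a genes were seen. The Nr4a windows were also rich in G and C, at 72.3%, 81.7% and 64.7% against a median of 52.7%. Among the 6218 promoters with at least 64.7% G and C, 32.4% held 1 core or more and 0.563% held 4 or more. Of 17 genes of other activity-induced transcription factors with a RefSeq promoter 12 held the core, with at most 2 matches in any promoter. Of 37 genes of other nuclear receptors with such a promoter 11 held it, with at most 3. The promoter with the most matches was taken for each gene, and these genes were not chosen by G and C content. A match describes letters and not a bound site.

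**Figure D1:**
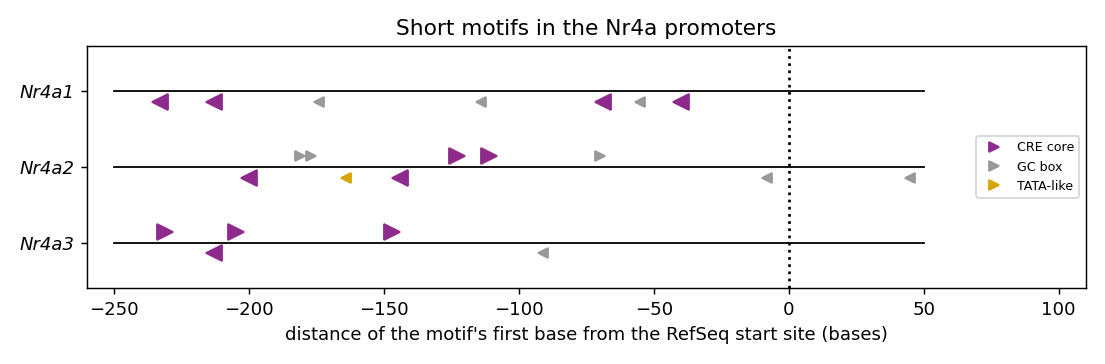
Position of the CRE core (purple), GC box (grey) and TATA-like (yellow) letters along the 3 Nr4a promoters, in bases from the RefSeq start site (dotted line). Arrows above a line point right for a match on the gene's strand and arrows below it point left for a match on the opposite strand; each gene has 4 CRE cores, all to the left of the start site.

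The full palindrome TGACGTCA, in which a TGACG and a CGTCA overlap and which would count as 2 cores, was in 0 of the 3 windows and in 1.79% of all promoters. NBRE, the monomer site of the Nr4a proteins themselves, searched as AAAGGTCA, was in 0 of the 3 and in 1.51% of all. An EGR site (GCGTGGGCG) was in 0 of the 3 and in 0.612%. A CArG box, the site of serum response factor, searched as CCWWWWWWGG with W for A or T, was in 0 of the 3 and in 1.63%. This strict search leaves out near matches, such as CCTTGTATGG in the printed Nr4a1 stretch, which differs by 1 letter. The GC box GGGCGG was present 3 times in Nr4a1, 5 times in Nr4a2 and 1 time in Nr4a3, and in 35.7% of all promoters. A TATA-like TATAAA was present in Nr4a2 alone of the 3, on the opposite strand 164 bases upstream, and in 13.6% of all. Every motif was searched on both strands.

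In GENCODE release M21 on mm10, the build of the counts, Nr4a1 (ENSMUSG00000023034.7) spans chr15:101254269-101274795, Nr4a2 (ENSMUSG00000026826.13) chr2:57106830-57124003 and Nr4a3 (ENSMUSG00000028341.9) chr4:48045153-48086447. None of the 3 overlaps another annotated gene, so reads of an antisense partner are not mixed into their counts. The joined exons measure 3509, 4059 and 5987 bp. The printed Nr4a1 window lies inside the span, since the annotation also holds transcripts that start further upstream, and the Nr4a3 window reaches past the annotated gene start.

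Library totals were 18814460 to 27293661 counts in B0, 5362773 to 9109104 in B1, 18346424 to 23412644 in B2 and 14054430 to 19136156 in B3, so every WT fear library came from the shallowest batch. The Nr4a rows held 186 to 3142 reads in the dorsal libraries, a counting error of 7.33% to 1.78%, and 721 to 3253 in whole hippocampus, 3.72% to 1.75%. These errors cover counting only, since without molecular identifiers a read need not be an independent molecule. Acss2, the targeted gene, followed the labels in every library: 56.2 to 71.3 CPM (counts scaled to the TMM-adjusted library size) in all WT libraries, 31.2 to 34.3 in Het and 3.87 to 7.02 in KO.

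Among the dorsal groups Nr4a1 was lowest in WT home cage, with 29.5, 30.6, 36.5, 32.6 and 27.9 CPM in libraries 1 to 5. WT fear libraries held 62.9, 112 and 119 CPM, KO home cage 38.4, 82.2, 45.4, 70.1 and 85.2 CPM, and KO fear 51.9, 68.9, 99.5 and 116 CPM. Every library of the 3 other dorsal groups lay above every WT home cage library. The means rose in the order WT home cage, KO home cage, KO fear and WT fear, and from KO home cage on neighbours overlapped and differed by less than the larger SD. The coefficient of variation was 10.5% in WT home cage and 31.3% to 34.3% in the other 3 groups. In whole hippocampus Nr4a1 stood at 102 and 99.1 CPM in WT, 68.3 and 121 in Het and 76.7 and 80.8 in KO, so that the KO libraries lay below both WT libraries and inside the Het range.

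Nr4a2 showed the same order of group means at lower levels. It stood at 27.1, 24.3, 24.1, 24.4 and 19.0 CPM in WT home cage, and WT fear held 39.0, 79.0 and 64.1 CPM. KO home cage held 22.2, 33.4, 27.7, 44.1 and 46.8 CPM, and KO fear 30.2, 22.4, 47.1 and 45.9 CPM. The ranges of neighbours in this order overlapped. WT fear did not overlap WT home cage, whereas KO fear covered nearly the same span as KO home cage, and the 2 lowest KO fear libraries were both of B1. In whole hippocampus 5 of 6 libraries lay between 66.1 and 72.8 CPM, and Het 2 stood apart at 26.8 CPM.

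Nr4a3 stood at 83.7, 86.2, 135, 123 and 99.9 CPM in WT home cage, 142, 121 and 128 in WT fear, 119, 122, 143, 85.5 and 95.6 in KO home cage, and 101, 105, 104 and 125 in KO fear. All 4 dorsal groups overlapped, and neighbours in the order of means differed by less than the larger SD. Home cage levels instead separated by batch: 83.7 to 86.2 CPM in B1 and 99.9 to 135 in B2 for WT, and 119 to 143 in B2 and 85.5 to 95.6 in B3 for KO. Whole hippocampus held 128 and 119.8 CPM in WT, 94.2 and 57.8 in Het and 108 and 119 in KO, with Het below both other genotypes.

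**Figure D2:**
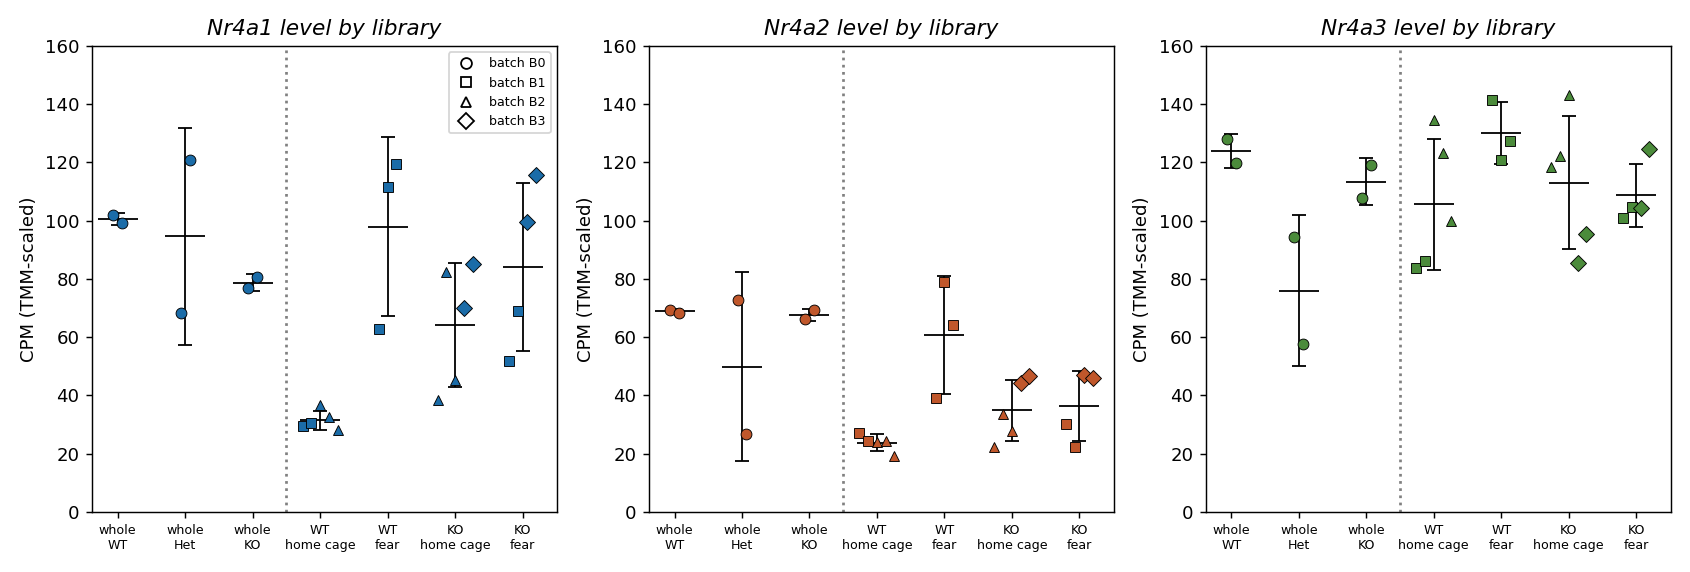
CPM of Nr4a1, Nr4a2 and Nr4a3 in every library (points, shape by batch), with the group mean and SD (bars), by group; whole hippocampus is left of the dotted line and dorsal hippocampus right of it. Nr4a1 and Nr4a2 are lowest in dorsal WT home cage (27.9 to 36.5 and 19.0 to 27.1 CPM), while Nr4a3 overlaps across the dorsal groups and splits by batch.

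The make-up of the family was taken per kilobase of joined exon, to allow for gene length, with the libraries of a group pooled over batches. The lengths are those of GENCODE M21 over all transcripts. The annotation behind the counts was not given, so the size of each share depends on this choice. In dorsal WT home cage Nr4a3 supplied 53.9% ± 4.76 of the family's length-scaled CPM (SD, n = 5), Nr4a1 27.7% ± 1.67 and Nr4a2 18.3% ± 3.30. In WT fear Nr4a1 supplied 42.5% ± 6.65 (SD, n = 3), Nr4a3 34.8% ± 9.93 and Nr4a2 22.7% ± 4.27. KO home cage had 39.2% ± 8.53 Nr4a1 and 42.2% ± 11.9 Nr4a3 (SD, n = 5), and KO fear 46.0% ± 5.76 and 36.6% ± 6.36 (SD, n = 4). Nr4a1 was thus the smaller share beside Nr4a3 in all 5 WT home cage libraries, where its highest share was 30.0%, and its lowest share in WT fear was 35.0%. Within B1 the Nr4a3 share was 48.1% and 49.4% in WT home cage and 46.2%, 28.2% and 30.0% in WT fear. Within B3 it was 31.6% and 30.8% in KO home cage against 30.4% and 32.0% in KO fear, which overlapped, and the KO home cage libraries of B2 had 54.7%, 39.2% and 54.8%.

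Within a library the ratio of 2 members needs no scaling. The mean log2 ratio of Nr4a1 to Nr4a3 counts was -1.73 ± 0.21 in WT home cage (SD, n = 5) and -0.46 ± 0.62 in WT fear (SD, n = 3), a difference of 1.27 with no overlap. By a two-sided exact permutation test this gave p = 0.0357, the smallest that 3 against 5 libraries allow, and 0.214 after Benjamini-Hochberg adjustment over the 6 ratio tests. The other 2 ratios in WT shifted by 0.29 (Nr4a1 to Nr4a2) and 0.98 (Nr4a2 to Nr4a3), both with exact p = 0.107 and adjusted p = 0.214. In KO the 3 ratios shifted by 0.34, 0.43 and 0.09, with adjusted exact permutation p of 0.238, 0.400 and 0.794. None of the 6 passed after adjustment. These tests do not account for batch. Within B1 the WT shifts were 0.47 for Nr4a1 to Nr4a2, 1.04 for Nr4a1 to Nr4a3 and 0.57 for Nr4a2 to Nr4a3. Within B3 the KO shifts were 0.44, 0.14 and -0.30. The adjusted exact permutation p in these comparisons was 0.4 to 0.6. A single batch holds too few libraries of each group for this test to pass at any size of shift. These p-values therefore cannot show whether the ratios shifted within a batch.

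The first dorsal comparison asks how the family stood 30 min after fear conditioning in WT mice. All 3 members rose, Nr4a1 3.39-fold, Nr4a2 2.49-fold and Nr4a3 1.56-fold. The log2 fold changes were 1.76 ± 0.27 (approximate SE, adjusted p = 0.00802), 1.31 ± 0.22 (0.0136) and 0.64 ± 0.13 (0.0293) by edgeR's quasi-likelihood test with Benjamini-Hochberg adjustment over 14808 genes. The share of all tested genes called in this comparison was 1.63%, and 0.871% were called higher. By p-value the members ranked 9, 13 and 39 among all tested genes. Among the 36 tested of 49 nuclear receptor genes Nr4a1 and Nr4a2 had the highest log2 fold changes and Nr4a3 ranked 9.

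These calls were not kept in every fit. With the 2 groups fitted alone Nr4a2 stood at 1.25 (edgeR, adjusted p = 0.0809) and Nr4a3 at 0.61 (0.0945). For Nr4a1 the adjusted edgeR p rose to 0.0513 when WT fear 3 was left out and to 0.066 when WT home cage 2 was. For Nr4a2 the same omission of WT home cage 2 gave 0.142, of WT fear 2 0.0931 and of WT fear 3 0.0589, and for Nr4a3 to 0.173, 0.0931 and 0.101 without the same libraries and 0.0507 without KO home cage 4. The log2 fold changes in these fits with 1 library left out stayed between 1.60 and 1.81 for Nr4a1, 1.08 and 1.30 for Nr4a2 and 0.63 and 0.70 for Nr4a3. In B1 alone, which holds both WT groups, they were 1.72, 1.26 and 0.62 with adjusted p of 0.068, 0.126 and 0.125, and for Nr4a3 without a batch term the value was 0.30 with adjusted p = 0.282.

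In KO mice the same contrast called none of the 3. Nr4a1 differed by 0.39 ± 0.24 on the log2 scale, Nr4a2 by -0.07 ± 0.19 and Nr4a3 by 0.28 ± 0.11, with adjusted edgeR p of 0.968, 0.987 and 0.968. The share of genes called was 0.0%: edgeR called 0 of 14808 genes, with 714 at an unadjusted p under 0.05, and DESeq2 called 6. Before adjustment 1 of the members, Nr4a3, was under 0.05 by edgeR, and none of the 3 was called by DESeq2. Within B3, the batch that holds both KO groups, Nr4a1 stood at 70.1 and 85.2 CPM in home cage and 99.5 and 116 CPM in fear without overlap, and Nr4a2 at 44.1 and 46.8 against 47.1 and 45.9 CPM. The B3 log2 differences were 0.46, 0.02 and 0.33, with adjusted p of 0.870, 0.981 and 0.870.

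The difference between the genotypes' fear changes was tested as an interaction, the KO fear change minus the WT fear change. It was -1.37 ± 0.30 for Nr4a1 (edgeR, adjusted p = 0.0507), -1.39 ± 0.25 for Nr4a2 (0.0406) and -0.37 ± 0.14 for Nr4a3 (0.161), so 1 member, Nr4a2, was called. Of all tested genes 0.479% were called, 0.284% lower. By p-value Nr4a2 ranked 9 and Nr4a1 ranked 77 of 14808, and among the 36 tested nuclear receptors they had the lowest and the next lowest value. Nr4a1 passed with RLE scaling (0.0439), with no filter on low counts (0.00983) and with DESeq2 (0.00188). Nr4a1 also passed when KO home cage 1 (0.0122), KO home cage 3 (0.046), WT fear 1 (0.00488) or WT home cage 1 (0.0352) was left out.

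The Nr4a2 interaction was fragile as a call and steady in direction. Leaving out each of the 17 libraries in turn gave values from -1.64 to -1.15, and 13 of the 17 fits had an adjusted p over 0.05. These were the fits without WT home cage 2 to 5 (0.0945, 0.069, 0.0707 and 0.0652), WT fear 2 and 3 (0.186 and 0.0947), KO home cage 2, 4 and 5 (0.0533, 0.0611 and 0.0698) and KO fear 1 to 4 (0.071, 0.0969, 0.0776 and 0.052). Without a batch term the value was -1.28 with adjusted p = 0.222. No single batch holds all 4 groups, so this difference has no within-batch value.

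**Figure D3:**
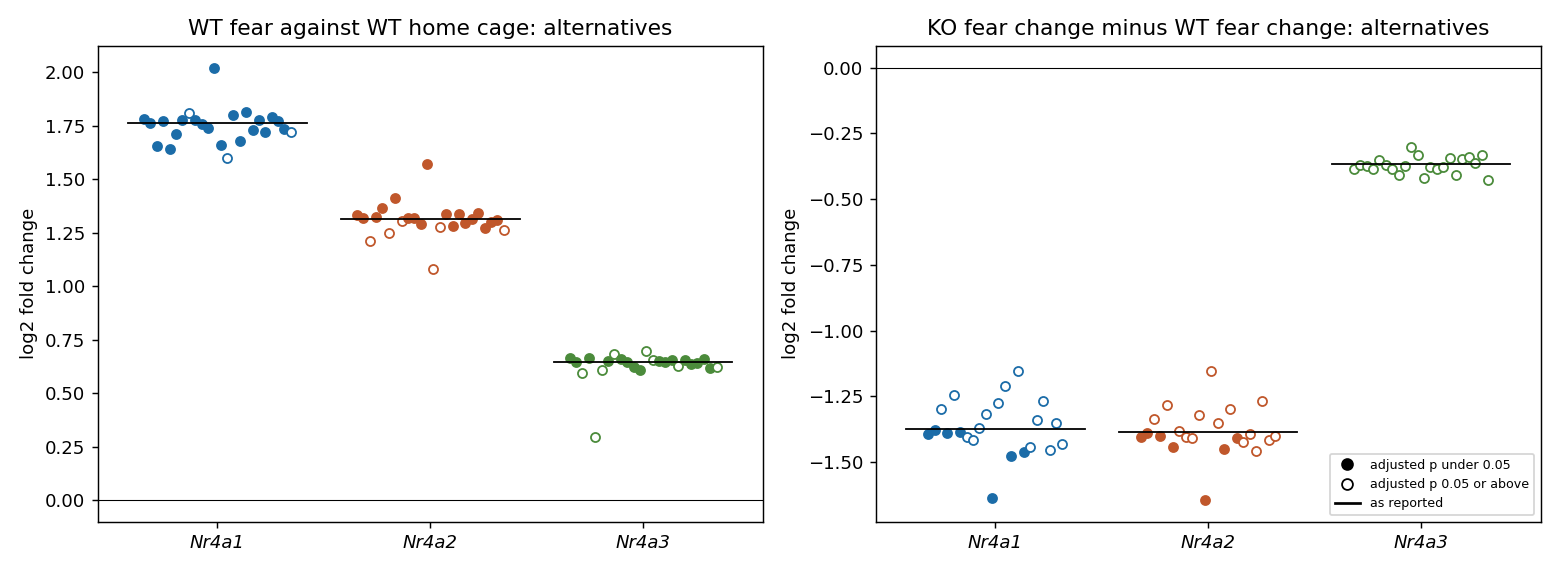
Log2 fold change of each Nr4a gene for WT fear against WT home cage (left) and for the KO fear change minus the WT fear change (right), under every alternative fit and every left-out library (points) with the reported value (line); filled points have an adjusted p under 0.05. The values keep their sign throughout, while the Nr4a2 interaction passes in 7 of 22 alternatives.

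Between genotypes in the home cage, Nr4a1 was higher in all 5 KO libraries than in any of the 5 WT libraries, by 0.72 ± 0.21 on the log2 scale. The value was 0.42 without KO home cage 2 and 1.03 without a batch term. Its unadjusted edgeR p was 0.00368 and its adjusted p 0.440, and it had the highest log2 value of the 36 tested nuclear receptors. Nr4a2 differed by 0.23 ± 0.17 and Nr4a3 by 0.06 ± 0.10 (adjusted p = 0.555 and 0.803). None of the 3 was called, by edgeR or by DESeq2, and 0.00675% of all genes were. Within B2, Nr4a1 stood at 36.5, 32.6 and 27.9 CPM in WT and 38.4, 82.2 and 45.4 CPM in KO, a log2 difference of 0.78 with adjusted p = 0.817. In whole hippocampus, also from home cage mice, both KO libraries were below both WT libraries for Nr4a1.

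After fear, KO libraries held less Nr4a2 than WT libraries, 2.23-fold lower (-1.16 ± 0.22 on the log2 scale, edgeR, adjusted p = 0.0155). Nr4a1 differed by -0.66 ± 0.26 (0.0773) and Nr4a3 by -0.30 ± 0.13 (0.0841), so 1 of 3 members was lower, in a comparison in which 22.3% of all genes were called and 12.1% were lower. Within B1 the Nr4a2 levels were 39.0, 79.0 and 64.1 CPM in WT and 30.2 and 22.4 CPM in KO, without overlap. KO fear 3 and 4 of B3 stood at 47.1 and 45.9 CPM, inside the WT range. The Nr4a2 call was lost without WT fear 2 (-0.92, 0.0713), WT fear 3 (-1.12, 0.0656) or KO fear 2 (-0.98, 0.110), and without a batch term (-0.73, 0.0767). The Nr4a1 value was -0.22 without a batch term (0.625). Nr4a1 was called by DESeq2 (0.0481), without WT fear 1 (-0.91, 0.0139) and without KO home cage 2 (-0.73, 0.0262), and Nr4a3 without WT home cage 5 (-0.33, 0.0449) or KO home cage 3 (-0.34, 0.0314).

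The members also differed between batches. Nr4a3 was higher in B2 than in B1 by 0.54 ± 0.11 on the log2 scale (edgeR, adjusted p = 0.00508) and lower in B3 than in B2, at -0.45 ± 0.11 (0.0303). Nr4a2 was higher in B3 than in B1 by 0.71 ± 0.20 (0.0295) and than in B2 by 0.80 ± 0.18 (0.0236). Nr4a1 was called in none of the 3 batch contrasts, with 0.74 ± 0.24 for B3 against B1 (0.0532). Of all genes 9.63%, 11.5% and 3.97% were called for B2 against B1, B3 against B1 and B3 against B2. B3 holds KO libraries only. The summed CPM of CA1 marker genes, described below, also differed between batches. In KO fear it was 459 and 457 CPM in B1 and 963 and 1060 in B3. In KO home cage it was 447, 972 and 792 CPM in B2 and 1031 and 957 in B3. Its part in the batch differences was not tested. These contrasts were added after the levels were seen.

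In whole hippocampus none of the 3 members was called between genotypes. KO against WT gave -0.35 ± 0.23 for Nr4a1, -0.03 ± 0.38 for Nr4a2 and -0.13 ± 0.20 for Nr4a3 on the log2 scale (edgeR, adjusted p = 0.858, 0.996 and 0.945), and 0.0388% of 15453 genes were called. Before adjustment 941 genes were under 0.05, 0 of the 3 members among them, and 19 were called by DESeq2. Het against WT gave -0.08 ± 0.23, -0.49 ± 0.39 and -0.71 ± 0.20 (0.899, 0.599 and 0.292). There edgeR called 0 genes, 0.0% of those tested, with 2145 at an unadjusted p under 0.05, and DESeq2 called 147, Nr4a3 among them (0.0347). KO against Het gave -0.27 ± 0.23, 0.46 ± 0.39 and 0.58 ± 0.20 (0.628, 0.625 and 0.324), with 0.0841% of genes called.

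**Figure D4:**
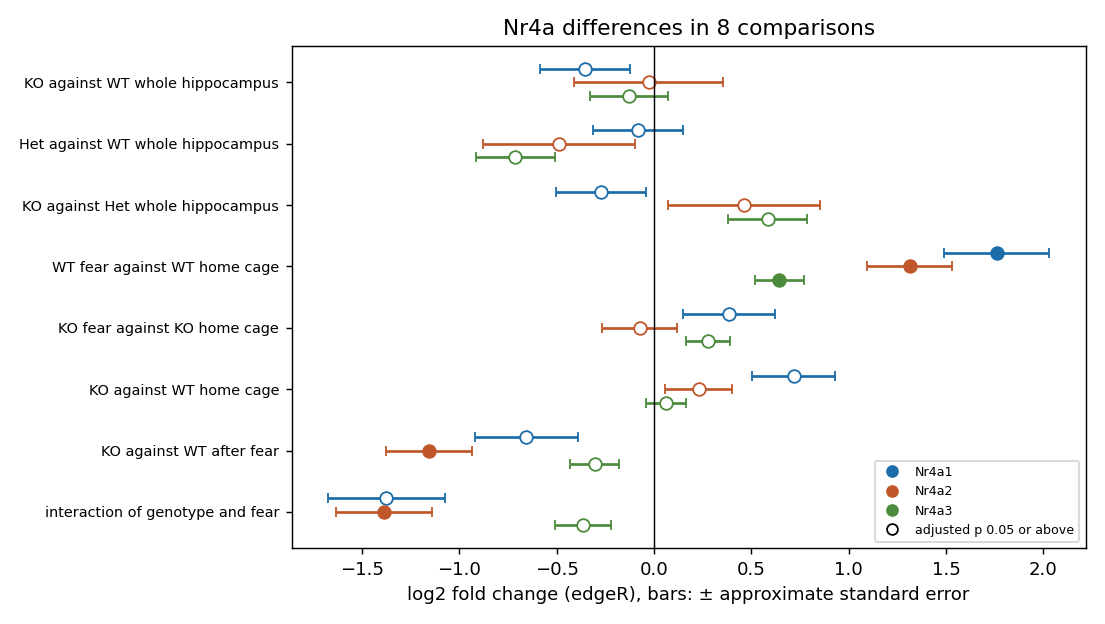
Log2 fold change with approximate SE of the 3 Nr4a genes in the 3 whole hippocampus and 5 dorsal comparisons; filled points passed at an adjusted p of 0.05. All 3 members pass for WT fear against WT home cage, and Nr4a2 alone passes for KO against WT after fear and for the interaction.

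The 2 Het libraries differed from each other. Het 2 had the highest Nr4a1 (121 CPM) and the lowest Nr4a2 (26.8 CPM) and Nr4a3 (57.8 CPM) of the 6 libraries. Without Het 1, so that Het 2 stood alone and was assumed to vary like the other groups, the edgeR log2 values against WT were 0.27 (adjusted p = 0.0388), -1.36 (0.000725) and -1.10 (0.00176), and of KO against Het -0.62 (0.00297), 1.34 (0.000636) and 0.97 (0.00243). Without Het 2 none was called, and Het against WT was -0.56, 0.08 and -0.40. In Het 2 the summed CA1 markers stood at 647 CPM against 860 to 943 in the other 5 libraries, dentate gyrus markers at 272 against 399 to 464, and subiculum and neocortex markers at 543 against 298 to 336. The part of these in the Nr4a differences was not tested.

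In the dorsal libraries too, marker genes of hippocampal fields moved with the members. With WT fear 5 of 9 tested CA1 markers rose (median log2 change 1.20, with Mpped1 at 1.20 ± 0.23 and Gpr161 at 1.66 ± 0.33, the 2 of smallest p), 2 of 10 CA2 and CA3 markers fell (median -0.82, with Amigo2 at -1.65 ± 0.25 and Cpne4 at -1.02 ± 0.20), 10 of 14 oligodendrocyte markers fell (median -1.24) and 5 of 10 ependymal markers fell (median -3.55), against a median of -0.02 over all tested genes. Between KO and WT after fear 7 of 9 CA1 markers were lower and 1 higher (median -1.17), 4 CA2 and CA3 markers were higher and 1 lower (median 0.77), and 9 of 14 oligodendrocyte and 10 of 10 ependymal markers were higher (medians 0.90 and 3.41). For the interaction the medians were -1.51 over CA1 markers, with 3 lower, and 0.99 over CA2 and CA3 markers, with 1 higher. Summed CA1 markers spanned 734 to 1236 CPM in WT fear and 457 to 1060 CPM in KO fear, against 442 to 626 CPM (WT) and 447 to 1031 CPM (KO) in the home cage, with none of the listed genes at 0. Of all tested genes 1.63% were called in WT fear, 22.3% between KO and WT after fear and 0.479% for the interaction. Without WT fear 2, WT fear 3 or KO fear 2 in turn, the calls after fear came down to 2, 1 and 1 genes. In bulk tissue fewer cells of a type and less RNA per cell cannot be told apart.

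Across the 17 dorsal libraries log2 Nr4a2 followed the log2 sum of CA1 markers with Pearson's r = 0.892 and that of CA2 and CA3 markers with r = -0.933. After centring within batches these were 0.888 and -0.979. For Nr4a1 the values were 0.826 and -0.795, and for Nr4a3 0.141 and 0.0557, or 0.486 and -0.542 after centring. Dentate gyrus markers gave 0.0483 for Nr4a1 and 0.29 for Nr4a2. Ependymal markers gave -0.685 for Nr4a1, -0.836 for Nr4a2 and -0.321 for Nr4a3, or -0.72, -0.882 and -0.623 after centring. Oligodendrocyte markers gave -0.524, -0.677 and -0.316 in the same order, or -0.608, -0.769 and -0.49 after centring. The libraries share their groups, batches and depth, so these values are a description, and the markers' part in the Nr4a differences was not tested.

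**Figure D5:**
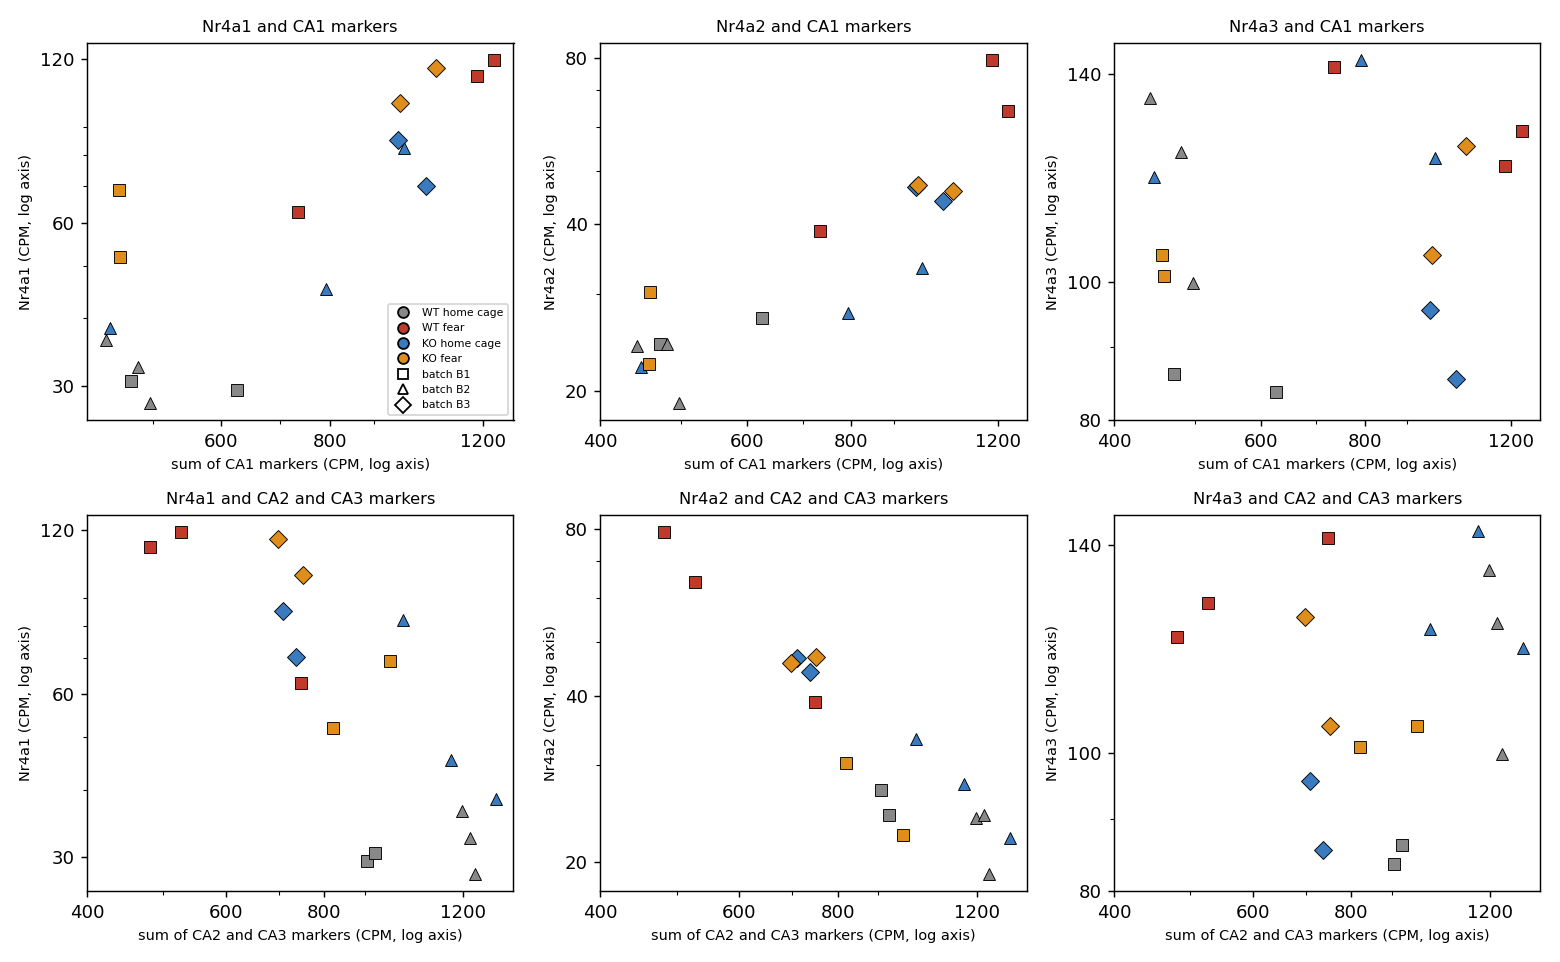
Each Nr4a gene's CPM against the summed CPM of CA1 markers (top) and of CA2 and CA3 markers (bottom) in the 17 dorsal libraries, on log axes, with colour for the group and shape for the batch. Nr4a2 falls along the CA2 and CA3 sum (Pearson's r = -0.933 on log2 values) across groups and batches, Nr4a1 less closely (r = -0.795) and Nr4a3 not in a line (r = 0.0557).

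Among the other genes of the pathway, the activity-induced transcription factors, which are co-induced with the Nr4a genes by neuronal firing, were called most often in WT fear. There 9 of 21 tested rose and 0 fell, with a median log2 change of 0.80, while 0.871% of all genes were called higher. Over the alternative fits 1 to 13 genes of the list were called higher. Egr2, a zinc finger factor, changed by 4.68 ± 0.49, Fos by 2.54 ± 0.31, Fosb by 2.00 ± 0.30 and Junb by 1.51 ± 0.20, Fos, Fosb and Junb being subunits of AP-1. The Egr2 change started near the floor, from a mean of 0.352 CPM in WT home cage to 9.65 CPM in WT fear. Junb overlaps a gene on the opposite strand, so its count is uncertain. In KO fear 0 of 21 passed by edgeR (median 0.27), with Fos at 1.28 ± 0.25 and Egr2 at 1.93 ± 0.38, both with adjusted p = 0.404. Egr2 (-2.75 ± 0.53), Junb (-1.15 ± 0.22) and Egr1 (-1.38 ± 0.27) were called for the interaction, 3 of 21 with a median of -0.50. Among all genes 0.479% were called for the interaction and 0.284% were lower. Over the alternative fits 0 to 10 genes of the list were called lower for the interaction. In KO against WT home cage 17 of 21 were above 0 and 0 were called (median 0.12). Egr2 stood at 1.86 ± 0.45 there and Fos at 0.99 ± 0.23, both with edgeR adjusted p = 0.440. The interaction takes in this home cage difference. After fear 7 of 21 were lower in KO than in WT (median -0.23), where 22.3% of all genes were called and 12.1% lower. Over the alternative fits 0 to 9 were called lower after fear.

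Of the other nuclear receptors 2 of 30 tested rose in WT fear (median 0.24), where 0.871% of all genes were called higher. Among the 2 was Thrb, a thyroid hormone receptor, at 0.78 ± 0.18. The counts for KO against WT after fear stand beside 22.3% of all genes called and 12.1% lower. Leaving out WT fear 2, WT fear 3 or KO fear 2 left 2, 1 and 1 of all genes called in that comparison. After fear 7 of 30 were lower and 1 higher in KO than in WT, with Thrb at -0.86 ± 0.19, Nr1d1, a clock repressor, at -0.85 ± 0.20 and Pgr, the progesterone receptor, at -0.91 ± 0.22 (median -0.22). Thrb was the 1 of 30 called for the interaction, at -1.08 ± 0.21, where 0.479% of all genes were called. Of the 3 retinoid X receptors, the partners of Nr4a1 and Nr4a2, Rxra rose in WT fear by 0.71 ± 0.17 and was lower in KO than in WT after fear (-0.60 ± 0.17), with medians of the 3 at 0.50 and -0.60.

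Upstream of the family, 1 of 13 genes of the CREB family and its coactivators rose in WT fear (median 0.22), beside 0.871% of all genes. That gene was Srf, the serum response factor, at 0.47 ± 0.11. Creb1 was not among those called. After fear, where 22.3% of all genes were called and 12.1% were lower, 3 of 13 were lower in KO, Mef2d at -0.70 ± 0.16 and the acetyltransferase coactivators Crebbp at -0.70 ± 0.18 and Ep300 at -0.75 ± 0.20 (median -0.24). Of 11 histone acetyltransferases 0 passed in WT fear (median 0.13) and after fear 6 were lower and 1 higher in KO (median -0.44), Naa60 at -0.44 ± 0.12 and Kat2a at -0.51 ± 0.15 beside Crebbp and Ep300. Of 16 histone deacetylases and corepressors 0 passed in WT fear (median 0.11) and 5 were lower after fear (median -0.14), among them Hdac4 at -0.44 ± 0.12 and Rcor1, a CoREST subunit, at -0.90 ± 0.26. These calls come from the comparison in which 1 or 2 genes were left without WT fear 2, WT fear 3 or KO fear 2. The median over all tested genes was 0.01 in that comparison and 0.03 for the interaction.

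Downstream, endoplasmic reticulum chaperones, described as Nr4a targets in the hippocampus, gave 0 of 17 called in WT fear (median 0.01), with Hyou1 at 0.37 ± 0.15 and Xbp1 at 0.27 ± 0.11, and 0 of 17 in KO fear (median 0.20, 16 of 17 above 0), with Hspa5 (BiP) at 0.61 ± 0.15 and adjusted p = 0.968. After fear, where 22.3% of all genes were called, 2 of 17 were higher in KO than in WT, Sil1 (0.49 ± 0.16) and Hsp90b1 (0.47 ± 0.16). Hyou1 was the 1 that was lower (-0.53 ± 0.15). Of the dopamine neuron genes that Nr4a2 regulates, 7 of 12 were testable and 0 passed in WT fear (median -0.51), with Ddc, the decarboxylase of dopamine synthesis, at -1.24 ± 0.33 and adjusted p = 0.0626. After fear 1 of 7, Aldh1a1, was higher (0.97 ± 0.26) in KO, and 1, Ret, a neurotrophic factor receptor, was lower (-1.53 ± 0.41). The after-fear calls of both lists come from the comparison left with 1 or 2 called genes without WT fear 2, WT fear 3 or KO fear 2. In KO against WT home cage, and in whole hippocampus KO against WT and Het against WT, 0 genes of any of these lists passed by edgeR. KO against Het called 1 gene of these lists, the nuclear receptor Nr2f1, which was lower (-0.51 ± 0.05).

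Across the 17 dorsal libraries the genes whose log2 CPM was most like Nr4a1, among 14700 genes tested in both tables, were Junb (Pearson's r = 0.962), Egr1 (0.944), Fosb (0.927), Fos (0.921) and Dusp6 (0.918), a phosphatase of ERK. All 5 also had positive r over the 6 whole hippocampus libraries, 0.741 to 0.936. For Nr4a2 they were Cadps2 (0.958), Adgrl2 (0.947), Fgf11 (0.947), Alox12b (0.946) and Bhlhe40 (0.944). With Spearman's rho, Mpped1, one of the CA1 markers, entered the 5 for Nr4a2, and in whole hippocampus Adgrl2 went the other way (-0.948). For Nr4a3 they were Asb1 (0.912), Kmt5a (0.861), Atxn7l3 (0.849), Pard6b (0.832) and Mmp24 (0.789), of which Atxn7l3 was at -0.881 in whole hippocampus. The 3 lists had no gene in common.

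Among themselves, Nr4a1 and Nr4a2 were alike across the dorsal libraries (r = 0.860), whereas Nr4a3 was at 0.235 with Nr4a1 and 0.136 with Nr4a2. Centred within batches these became 0.790, 0.700 and 0.593. In the 6 whole hippocampus libraries Nr4a1 and Nr4a2 were at -0.708 and Nr4a2 and Nr4a3 at 0.917, values that include Het 2, the library that stood apart. All libraries share the groups and batches described above, and these values are given with no test.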

How the data were processed

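Counts per gene symbol, as deposited by the authors, were used for every test. Build mm10 and the tools HTSeq 0.9.1, SAMtools 1.1, STAR, limma and DESeq2 are listed, without roles, per the submitters' processing notes; the annotation behind them was not given in the sources used here. Normalized signal values, also deposited, were only inspected: in whole hippocampus they equal the authors' counts divided by 1 factor per library. In the dorsal table they do not, with a largest relative deviation of 3.66 from the library's median factor. There Nr4a3 held 1909 to 2224 in WT fear and 1124 to 1843 in all other dorsal libraries, without the overlap seen in CPM. The library kit does not mark strand.

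Tests used edgeR 4.0.16 in R 4.3.3 (quasi-likelihood F) with TMM scaling on genes past filterByExpr (count minimum 10, total minimum 15), two-sided, with Benjamini-Hochberg adjustment over all genes and a threshold of 0.05. Whole hippocampus was fitted by genotype (6 libraries, 15453 genes, 3 residual degrees of freedom) and the dorsal table by group and batch (17 libraries, 14808 genes, 11). The approximate SE of a log2 fold change is its size over the root of F. Het, KO and WT comparisons within a table share libraries. Ratios of members (pseudocount 0.5) were tested with scipy 1.17.1. Alternatives were RLE, DESeq2 1.42.0, no filter, a replicate block, no batch term, fewer groups, 1 batch, and each library left out. Between libraries of the same group the chi-square per gene was 5.86 to 58.9, above sampling noise. The script was tested on simulated data.

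The members, gene lists and marker lists were chosen with earlier results of these data known. Named list genes are those that passed, at most the 4 of smallest p (of the markers, 2), or the 2 of smallest p where none passed, and for each Nr4a gene the 5 most like it. Batch contrasts, correlations with marker sums and the limit of 4 CRE cores were added after values were seen. Promoters are from RefSeq, GRCm38.p6, with all 3 members matched. The values of 1 list gene are not reported here.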

Additional observations from a re-analysis of the deposited data

Results flagged for a closer look

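Nr4a3 in KO fear 4 stood at 125 CPM, far from the other 3 KO fear libraries at 101 to 105 CPM relative to the group's range. Chance flags about 1 in 20 such groups, and 9 groups of the 3 genes were examined in this way. KO fear 4 is of batch B3, as is KO fear 3 at 104 CPM.

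The fear change of Nr4a2 differed between the genotypes, at -1.39 on the log2 scale (KO fear change minus WT fear change, edgeR, adjusted p = 0.0406). All 3 WT fear libraries lay above all 5 WT home cage libraries, whereas the KO fear and KO home cage ranges overlapped. Within B3, KO fear stood at 45.9 and 47.1 CPM and KO home cage at 44.1 and 46.8. KO fear of B1 stood at 22.4 and 30.2 CPM, and KO home cage of B2 at 22.2 to 33.4. Markers of CA1, of CA2 and CA3, of oligodendrocytes and of ependyma moved with Nr4a2, and their part was not tested.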

How the results depend on the processing

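Of 453 alternative values of single members, 386 kept their direction and side of the threshold, 37 lost a call, 18 gained one and 12 changed sign. For the ratios 59 of 63 kept both and 4 changed sign, and of 151 counts of called genes 82 stayed within 1.5 times. Causes were not tested. Depth was lowest in B1, which holds every WT fear library. The replicate numbers do not pair samples by the labels, and correlations of same-numbered libraries spanned -0.678 to 0.388 (whole hippocampus) and -0.567 to 0.197 (dorsal). With a replicate block WT fear against WT home cage gave 1.21 for Nr4a2 (adjusted p = 0.092) and 0.59 for Nr4a3 (0.112), KO against WT after fear -1.14 for Nr4a2 (0.119) and its interaction -1.34 (0.119). The block left 7 genes called for KO against Het, 15 for WT fear, 1 for KO against WT after fear and 0 for the interaction, where edgeR with no block called 13, 241, 3298 and 71.

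Gains of a call were Nr4a3 with DESeq2 in Het against WT (-0.71), Nr4a1 with DESeq2 after fear (-0.67), and the Nr4a1 interaction with RLE (-1.39), no filter (-1.38) and DESeq2 (-1.39). Calls in WT fear were lost with the 2 groups alone for Nr4a2 (1.25) and Nr4a3 (0.61), in B1 alone (1.72, 1.26 and 0.62) and with no batch term for Nr4a3 (0.30), and with no batch term for Nr4a2 after fear (-0.73) and its interaction (-1.28). Near 0, KO fear changed sign for Nr4a2 with no batch term (0.084), the 2 groups alone (0.027) and B3 alone (0.022), and for Nr4a3 with no batch term (-0.056). The ratio of Nr4a2 to Nr4a3 in KO was -0.30 in B3 alone.

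Counts of called genes moved with DESeq2 to 19 (KO against WT), 147 (Het against WT) and 137 (KO against Het) in whole hippocampus and to 938 (WT fear), 6 (KO fear), 2 (home cage) and 904 (interaction). With no filter they were 3 and 23 for Het against WT and KO against Het, 528 for WT fear, 2 for home cage and 400 for the interaction, and with RLE 130 for the interaction. With no batch term they were 712, 1, 2, 1544 and 0 in the 5 dorsal comparisons. The 2 groups alone gave 7 for KO against Het and 14 for WT fear, B1 alone 5 and B3 alone 2.

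Leaving out 1 library at a time, KO against WT in whole hippocampus ran from -0.061 to 0.00625 for Nr4a2. Het against WT ran from -0.56 to 0.27, -1.36 to 0.075 and -1.10 to -0.40 for Nr4a1 to Nr4a3, and KO against Het from -0.62 to 0.21, -0.10 to 1.34 and 0.27 to 0.97. WT fear ran from 1.60 to 2.02, 1.08 to 1.57 and 0.61 to 0.70, and KO fear for Nr4a2 from -0.13 to 0.00272. KO against WT home cage for Nr4a3 ran from -0.026 to 0.12. After fear the ranges were -0.91 to -0.49, -1.41 to -0.92 and -0.36 to -0.26, and for the interaction -1.64 to -1.15 for Nr4a1 and -1.64 to -1.15 for Nr4a2. The ratio of Nr4a2 to Nr4a3 in KO ran from -0.082 to 0.29. Gene counts ran from 0 to 1424 for Het against WT, 6 to 1211 for KO against Het (both highest without Het 1), 8 to 819 for WT fear (without WT home cage 2 and 1), 1 to 585 for home cage (585 without KO home cage 3), 1 to 4610 after fear (1 without WT fear 3 or KO fear 2) and 0 to 1007 for the interaction (1007 without WT fear 1).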
